A study of Homo sapiens with 27 samples.

Results

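CXCL1, CXCL2, CXCL3, CXCL5, CXCL6 and CXCL8 encode secreted chemokines that bind the receptor CXCR2. They were chosen by gene symbol for that shared receptor, with earlier results of these data known. They are 6 of the 60534 gene IDs counted in every library, and all 6 had counts. The cells were IMR90, an established line of normal human fetal lung fibroblasts, studied by RNA-seq and by ribosome profiling (Ribo-seq), in which footprints, the stretches of mRNA shielded by a ribosome during RNase I digestion, are sequenced. Per the labels, the study compared cycling, quiescent, senescent and stressed cells, and cells for both library types were collected side by side.

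There were 5 states. Cycling cells were harvested before they were confluent (2 RNA-seq and 3 Ribo-seq libraries), and contact-inhibited quiescent cells had stopped dividing at confluence (3 and 3). Irradiated cells received 15 Gy of ionizing radiation and were harvested 10 days later (3 and 3). Etoposide-treated cells received 3 treatments with 50 µM etoposide, a drug that traps topoisomerase II on broken DNA, over 10 days (3 and 3). The labels call the irradiated and the etoposide-treated cells senescent. The thapsigargin state was cycling cells given 25 nM thapsigargin, which blocks the calcium pump of the endoplasmic reticulum, for 3 h (2 and 2). Apart from the thapsigargin libraries, for which no genotype was labelled, all cells were labelled wild type. The medium of the thapsigargin cells was described without the antibiotics and antimycotics of the others. The labels do not say whether replicates came from separate cultures, so p-values measure the spread between libraries, which may be technical.

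These chemokines carry a glutamate-leucine-arginine motif before their paired cysteines and attract neutrophils and other cells that display CXCR2. CXCL6 and CXCL8, better known as interleukin 8, also act on CXCR1. In fibroblasts their genes are switched on by interleukin 1, tumour necrosis factor and damage signals, largely through the transcription factor NF-κB, and their short-lived mRNAs carry AU-rich elements. They are textbook members of the senescence-associated secretory phenotype, the set of cytokines and proteases that many senescent cells release, and CXCR2 signalling has been tied to the upkeep of senescent growth arrest.

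The 6 genes lie in a chemokine cluster on the long arm of chromosome 4, chr4:73740569-74099195 in the RefSeq annotation of GRCh38.p14, a span of 359 kb with 9 protein-coding genes. CXCL8 (ENSG00000169429, chr4:73740569-73743716), CXCL6 (ENSG00000124875, chr4:73836678-73838760) and CXCL1 (ENSG00000163739, chr4:73869393-73871308) are on the forward strand. CXCL5 (ENSG00000163735, chr4:73995642-73998677), CXCL3 (ENSG00000163734, chr4:74036589-74038689) and CXCL2 (ENSG00000081041, chr4:74097040-74099195) are on the reverse strand. CXCL5 overlaps a long noncoding RNA gene of the other strand, LOC124900715, at its start. CXCL1, CXCL2 and CXCL3 are close paralogs of each other, as are CXCL5 and CXCL6. Reads that map to several places are in no gene's count, so the absolute levels of these genes are uncertain, above all in short footprints.

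The promoters are shown because all 6 mRNAs were called higher after etoposide. Whether the 6 genes are under common control was not tested. Each window holds the 150 bases before the gene's annotated start, 5′ to 3′ on the gene's own strand, from RefSeq for GRCh38.p14, in which 6 of 6 genes were matched. The windows are chr4:73869243-73869392 for CXCL1, chr4:74099196-74099345 for CXCL2, chr4:74038690-74038839 for CXCL3, chr4:73998678-73998827 for CXCL5, chr4:73836528-73836677 for CXCL6 and chr4:73740419-73740568 for CXCL8. Capitals mark the letters GGAATTTCC, the core of an NF-κB (kappaB) site, and in CXCL8 also a match to the AP-1 letters TGANTCA and the TATA box letters TATAAA.
CXCL1: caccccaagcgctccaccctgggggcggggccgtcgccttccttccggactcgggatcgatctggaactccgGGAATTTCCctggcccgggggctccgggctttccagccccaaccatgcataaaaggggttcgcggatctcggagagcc
CXCL2: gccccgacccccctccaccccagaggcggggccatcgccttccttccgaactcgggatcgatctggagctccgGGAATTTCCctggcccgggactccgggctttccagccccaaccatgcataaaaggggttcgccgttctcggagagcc
CXCL3: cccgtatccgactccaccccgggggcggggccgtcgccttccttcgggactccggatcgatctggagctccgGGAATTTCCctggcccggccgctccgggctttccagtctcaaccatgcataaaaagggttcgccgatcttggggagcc
CXCL5: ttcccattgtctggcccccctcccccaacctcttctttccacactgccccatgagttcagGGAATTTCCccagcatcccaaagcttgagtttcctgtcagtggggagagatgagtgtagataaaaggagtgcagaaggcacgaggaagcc
CXCL6: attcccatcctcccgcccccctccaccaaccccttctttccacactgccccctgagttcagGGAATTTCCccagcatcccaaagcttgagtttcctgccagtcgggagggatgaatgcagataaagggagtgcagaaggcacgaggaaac
CXCL8: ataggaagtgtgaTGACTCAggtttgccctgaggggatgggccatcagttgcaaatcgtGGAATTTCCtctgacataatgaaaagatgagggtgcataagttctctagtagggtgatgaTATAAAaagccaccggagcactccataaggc

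Within 250 bases before the start, searched on both strands, GGAATTTCC stood in 6 of 6 promoters, against 79 of 22197 promoter windows of protein-coding genes (0.356%). It ended between 69 and 83 bases before the start in every case. TGANTCA stood in CXCL8 alone among the 6 genes and in 5.36% of all windows, and TATAAA in CXCL8 alone and in 9.01% of all windows. The C/EBP letters TTGCNNAA stood in CXCL2 alone, from 188 to 181 bases before the start, against 7.5% of windows, and the GC box letters GGGCGG in CXCL1, CXCL3 and CXCL6, against 53.7%. Aligned end to end over the 250 bases before the start, with gaps counted as differences, the promoters fell into families: CXCL1 and CXCL3 were 81.4% identical, CXCL2 and CXCL3 73.3%, CXCL1 and CXCL2 67.9%, and CXCL5 and CXCL6 85.3%. The other pairs were between 39.1% and 50.7% identical. GGAATTTCC is a single exact spelling, and other spellings of a kappaB site were not counted. Promoters of a family share much of their sequence, so the 6 matches are not separate observations, and no enrichment was tested. A match of letters is a description of the sequence, and binding was not measured.

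Gene counts per library, in units of 1e6, were 20.6 to 57.1 in RNA-seq and 1.94 to 20.0 in Ribo-seq, with the thapsigargin Ribo-seq libraries the shallowest. Levels are given in counts per 1e6 counts (CPM) after scaling, and they are not corrected for gene length, so they are compared between libraries and not between genes. All 10 fibroblast markers, collagens, DCN and PDGFRA among them, were above 1 CPM in every library. After etoposide 1 (LUM) was called higher than in cycling cells and 2 (VIM and COL1A1) lower in mRNA, beside 16.8% and 17.8% of all genes. Under thapsigargin 0 were called higher and 7 lower in mRNA, beside 11.7% and 12.8% of all genes. Markers of leukocytes, which can make the same chemokines, were low: their 10 genes together reached 1.82 to 2.00 CPM in etoposide RNA-seq, against 0.265 to 0.738 CPM in the other states, and each stayed under 1 CPM. PTPRC, the pan-leukocyte antigen CD45, was called higher after etoposide than in cycling cells (edgeR adjusted p = 0.00851), at 0.724 ± 0.0201 CPM (SD, n = 3) from 72 counts against 0.0548 ± 0.0774 CPM (n = 2) from 3 counts. In Ribo-seq the 10 genes reached 1.92 to 4.03 CPM after etoposide and up to 1.14 CPM elsewhere, and CD14, singled out after its values were seen, rose by 3.52 ± 0.61 on the log2 scale (edgeR adjusted p = 6.91e-04), from 5 to 34 counts. PTPRC mRNA and CD14 footprints were low in cycling cells, and the filter on low counts may have passed them through the etoposide libraries alone. The 10 epithelial and endothelial markers together held 139.9 to 166.5 CPM in etoposide RNA-seq against 86.6 to 136.5 CPM in the other states. Of 8 tested, 2 were called higher than in cycling cells (TEK and VWF) and 1 lower (CLDN4), beside 16.8% and 17.8% of all genes. In Ribo-seq the 10 markers held 128.1 to 162.3 CPM against 95.0 to 150.6 CPM. Of 5 tested there, 1 was called higher (TEK) and 3 lower (KRT18, KRT8 and CLDN4), beside 16.8% and 17.1% of all genes. The part of such cells in the chemokine results was not tested. The 6 chemokine genes together took 426.3 to 1560.9 CPM in the same etoposide RNA-seq libraries. In bulk samples a change in the number of cells that make an mRNA and a change in mRNA per cell cannot be told apart.

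After etoposide all 6 chemokine mRNAs were higher than in cycling, quiescent and irradiated cells, and their libraries lay above the thapsigargin libraries too, by a narrow gap for CXCL8 and CXCL2. The lowest etoposide library exceeded the highest library of every other state for each of the 6 genes in both library types. The share of all genes with such a gap was not counted, so this describes the 6 genes only. For CXCL2 footprints the lowest etoposide library was at 0.620 CPM, while a count of 0 under thapsigargin allows up to 0.804 CPM. Summed over the 6 genes, etoposide RNA-seq libraries held 1560.9, 426.3 and 807.4 CPM, cycling 5.59 and 29.7, quiescent 14.3, 21.0 and 47.3, irradiated 22.0, 21.2 and 26.7, and thapsigargin 135.4 and 86.9 CPM. Summed footprints were 1175.1, 407.3 and 905.2 CPM after etoposide and at most 32.0 CPM in cycling, quiescent and irradiated libraries. The summed levels of irradiated cells lay within the range of cycling and quiescent cells in both library types.

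**Figure D1:**
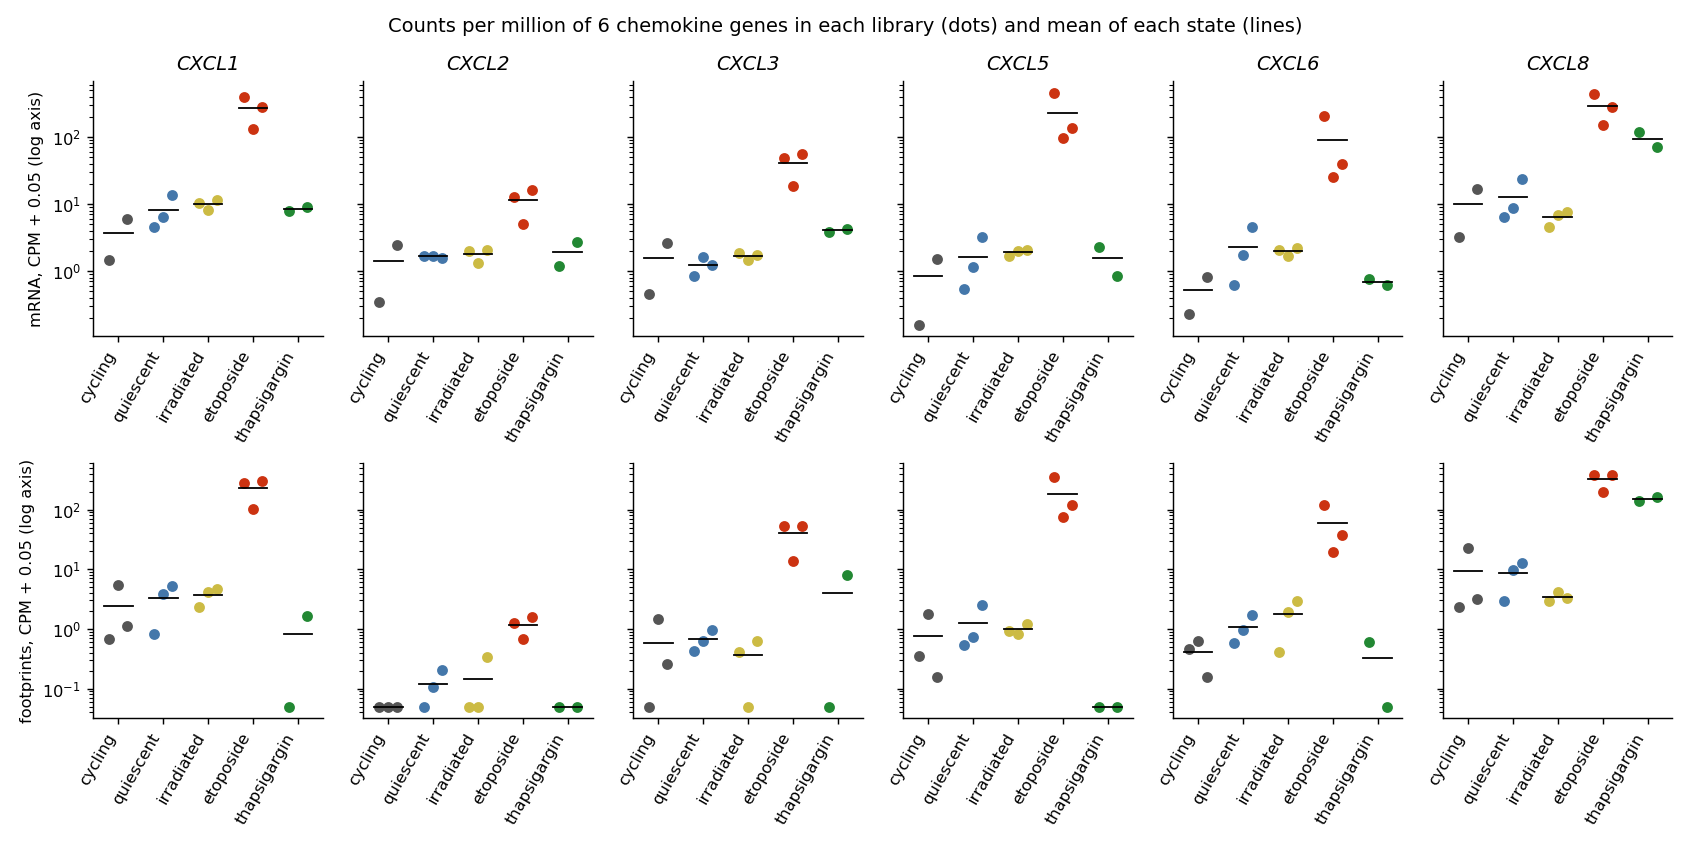
Level in CPM (log axis, 0.05 added) of the 6 genes in each library (dots) and the mean of each state (lines), for mRNA above and ribosome footprints below. The 3 etoposide libraries lie above all others in every panel, on few counts for CXCL2 footprints. For CXCL8 the thapsigargin libraries come next, at 69.7 and 119.6 CPM of mRNA.

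CXCL1, the melanoma growth stimulating activity first known as GROα, had 395.3, 130.4 and 279.9 CPM of mRNA in the etoposide libraries. It had 1.42 and 5.86 CPM in cycling libraries, 4.45, 6.46 and 13.6 CPM in quiescent ones, 10.2, 8.05 and 11.5 CPM after irradiation, and 7.83 and 9.08 CPM in thapsigargin libraries. The lowest etoposide library was 9.59 times the highest other, a quiescent one. Its footprints were 274.3, 102.9 and 306.7 CPM after etoposide and at most 5.44 CPM elsewhere, in a cycling library. The ranges of the other 4 states followed one another with overlap between neighbours in mRNA and in footprints.

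CXCL2 and CXCL3, the paralogs GROβ and GROγ, were likewise highest after etoposide. CXCL2 mRNA was at 12.7, 4.96 and 16.3 CPM after etoposide, with 0.292 and 2.39 CPM in cycling libraries, 1.65, 1.62 and 1.53 CPM in quiescent ones, 1.93, 1.25 and 2.00 CPM after irradiation, and 1.15 and 2.63 CPM in thapsigargin libraries. The lowest etoposide library was 1.88 times the highest other, the narrowest gap among the 5 genes other than CXCL8 in RNA-seq. CXCL2 footprints were few: 7, 4 and 9 counts after etoposide, 0 in all 3 cycling, 4 in all in quiescent, 1 in irradiated and 0 in thapsigargin libraries. With the floor of 3 counts over the cycling group, CXCL2 footprints were at least 12.4-fold higher after etoposide. Against quiescent cells the ratio was 16.1 (95% exact counting interval 5.38 to 64.6), an interval that covers counting error only.

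CXCL3 mRNA was at 49.3, 18.4 and 55.7 CPM after etoposide. It was at 0.402 and 2.60 CPM in cycling libraries, 0.786, 1.55 and 1.17 CPM in quiescent ones, 1.82, 1.41 and 1.69 CPM after irradiation, and 3.80 and 4.18 CPM in thapsigargin libraries. The thapsigargin libraries thus lay between etoposide and all others without overlap. CXCL3 footprints were 53.4, 13.9 and 53.3 CPM after etoposide, at most 1.41 CPM in cycling, quiescent and irradiated libraries, and 0 and 7.88 CPM in the thapsigargin libraries, which rested on 0 and 15 counts.

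CXCL5, known as ENA-78, had the widest gap between states. Its mRNA was at 457.8, 94.9 and 136.6 CPM after etoposide, against 0.110 and 1.45 CPM in cycling libraries, 0.486, 1.10 and 3.19 CPM in quiescent ones, 1.63, 1.96 and 2.00 CPM after irradiation, and 2.27 and 0.790 CPM in thapsigargin libraries. The lowest etoposide library was 29.8 times the highest other in mRNA and 30.6 times in footprints. CXCL5 footprints were at 347.0, 75.3 and 119.9 CPM after etoposide and at most 2.46 CPM elsewhere, in a quiescent library. Over the groups, 21381 counts after etoposide stood against 31 in cycling RNA-seq.

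CXCL6, the granulocyte chemotactic protein GCP-2 and the nearest paralog of CXCL5, had 207.9, 25.3 and 39.7 CPM of mRNA after etoposide. It had 0.183 and 0.778 CPM in cycling libraries, 0.561, 1.66 and 4.48 CPM in quiescent ones, 2.01, 1.60 and 2.12 CPM after irradiation, and 0.707 and 0.580 CPM in thapsigargin libraries. The first etoposide library stood far above the other 2, and the irradiated libraries stood above both cycling and both thapsigargin libraries. CXCL6 footprints were at 117.7, 19.7 and 38.0 CPM after etoposide, with a highest value elsewhere of 2.90 CPM in an irradiated library of 10 counts.

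CXCL8, the best studied neutrophil attractant of the group, had 438.0, 152.5 and 279.1 CPM of mRNA after etoposide. It was at 3.18 and 16.6 CPM in cycling libraries, 6.40, 8.57 and 23.4 CPM in quiescent ones, 4.47, 6.88 and 7.43 CPM after irradiation, and 119.6 and 69.7 CPM in thapsigargin libraries. Only the thapsigargin libraries came near the etoposide range, and the lowest etoposide library was 1.28 times the higher of them. Footprints were at 381.5, 194.9 and 385.7 CPM after etoposide and 136.9 and 164.8 CPM under thapsigargin. They were at 2.26, 22.9 and 3.07 CPM in cycling libraries, 2.88, 9.67 and 12.9 CPM in quiescent ones, and 2.84, 4.18 and 3.19 CPM after irradiation.

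Tested by edgeR's quasi-likelihood test with Benjamini-Hochberg adjustment over all genes, 6 of 6 mRNAs were called higher (adjusted p under 0.05) after etoposide than in cycling cells, where 16.8% of 13293 genes were. Their log2 fold changes ran from 3.17 ± 0.67 (SE) for CXCL2 to 8.36 ± 1.05 for CXCL5, with a median of 5.58 beside 0.00 for all genes, and adjusted p-values from 1.21e-05 to 0.00258. Footprints of CXCL2 were too few to be tested. The other 5 genes were all called higher, where 16.8% of 11766 genes were, from 5.01 ± 0.70 for CXCL8 to 7.77 ± 0.80 for CXCL5 (edgeR adjusted p from 9.32e-06 to 8.81e-05). CXCL3 footprints were at most 1.41 CPM in cycling, quiescent and irradiated libraries. The filter on low counts may thus have passed CXCL3 through the etoposide libraries alone. CXCL6 had 7.68 ± 1.18 in mRNA and 7.19 ± 0.81 in footprints, CXCL1 6.26 ± 0.68 and 6.44 ± 0.71, CXCL3 4.87 ± 0.62 and 5.97 ± 0.81, and CXCL8 4.91 ± 0.76 in mRNA. Cycling RNA-seq replicate 2 and replicate 1 differed for these genes. Without replicate 1 the mRNA changes were 2.24 (CXCL2) to 7.30 (CXCL5), and without replicate 2 they were 5.26 (CXCL2) to 10.98 (CXCL5). Without cycling Ribo-seq replicate 2 the footprint changes were 6.90 (CXCL8) to 9.66 (CXCL5), and all calls were kept. Without etoposide replicate 1 CXCL5 was at 7.37 in mRNA and 6.89 in footprints, and CXCL6 at 6.19 and 6.17.

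The direct comparison with irradiated cells asked whether both ways of inducing senescence gave the same chemokine levels. All 6 mRNAs were called higher after etoposide, where 12.9% of genes were, by 6.94 ± 0.77 for CXCL5, 5.57 ± 0.82 for CXCL6, 5.53 ± 0.65 for CXCL8, 4.76 ± 0.52 for CXCL1, 4.64 ± 0.51 for CXCL3 and 2.71 ± 0.54 for CXCL2 (log2, ± SE; edgeR adjusted p from 8.53e-05 to 0.00307). The median was 5.15 beside -0.06 for all genes. In footprints 5 of 5 tested genes were called higher, where 13.7% of genes were, by 5.26 ± 0.78 (CXCL6) to 7.57 ± 0.89 (CXCL5), with edgeR adjusted p from 2.58e-04 to 8.54e-04. CXCL3, one of the 5 here and against quiescent cells, had 4 footprint counts in irradiated cells. The filter on low counts may have passed its footprints through the etoposide libraries, so these calls of CXCL3 add little. Against quiescent cells, 6 of 6 mRNAs were called higher (21.1% of all genes), by 2.82 ± 0.55 (CXCL2) to 7.19 ± 0.79 (CXCL5), and 5 of 5 footprint sets (19.0%), by 5.25 ± 0.70 (CXCL8) to 7.20 ± 0.73 (CXCL5). Leaving out single libraries moved some values without ending a call. Without etoposide replicate 1, CXCL6 was at 4.09 (mRNA) and 4.24 (footprints) against irradiated and at 3.88 and 4.78 against quiescent cells, and CXCL5 at 5.96 and 6.70 and at 6.20 and 6.33. Without quiescent RNA-seq replicate 3, the mRNA changes against quiescent cells were 8.18 for CXCL5, 6.35 for CXCL6 and 5.27 for CXCL8, and without quiescent Ribo-seq replicate 3 CXCL5 footprints were at 8.25. Without irradiated Ribo-seq replicate 1 or 3, CXCL6 footprints were at 4.59 or 6.03 against irradiated cells. These comparisons share the etoposide libraries and are not independent of each other.

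**Figure D2:**
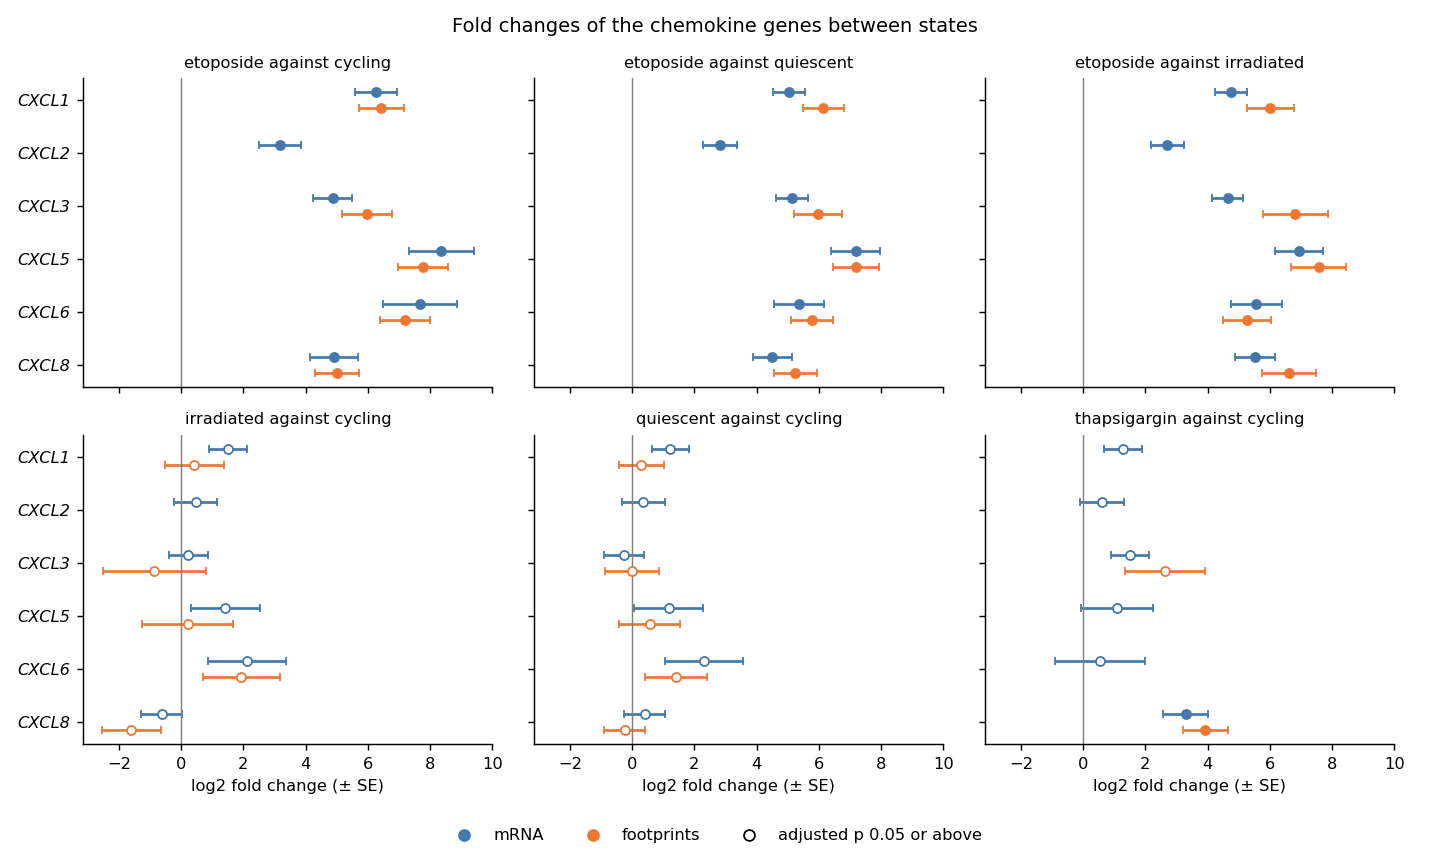
Log2 fold changes (± SE, edgeR) of mRNA and footprints in 6 comparisons, with filled points for an adjusted p under 0.05 and no point where a group held 3 counts or fewer. All etoposide comparisons are filled and lie between 2.71 and 8.36, while CXCL8 under thapsigargin is the only filled point in the other panels.

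The 6 genes did not vary in one proportion over the 3 etoposide libraries. In RNA-seq, CXCL5 stood at 1.99, 0.41 and 0.59 times its mean of the state in replicates 1, 2 and 3, and CXCL6 at 2.29, 0.28 and 0.44 times. CXCL2 stood at 1.12, 0.44 and 1.44 times and CXCL3 at 1.20, 0.45 and 1.36 times. CXCL5 and CXCL6 were thus highest in replicate 1, CXCL2 and CXCL3 in replicate 3, and replicate 2 was lowest for every gene. In Ribo-seq CXCL5 stood at 1.92, 0.42 and 0.66 times its mean, CXCL6 at 2.01, 0.34 and 0.65 times, CXCL2 at 1.08, 0.55 and 1.37 times and CXCL3 at 1.33, 0.35 and 1.33 times. CXCL5 and CXCL6 were again highest in replicate 1, while CXCL3 was level between replicates 1 and 3. These are single libraries, and the differences between them were not tested. The ratio of CXCL5 to CXCL1 mRNA counts went from 1.16 in replicate 1 to 0.728 in replicate 2 and 0.488 in replicate 3, and that of their footprints from 1.27 to 0.732 and 0.391. CXCL8 to CXCL1 stayed closer, at 1.11, 1.17 and 0.997 in mRNA and 1.39, 1.89 and 1.26 in footprints.

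**Figure D3:**
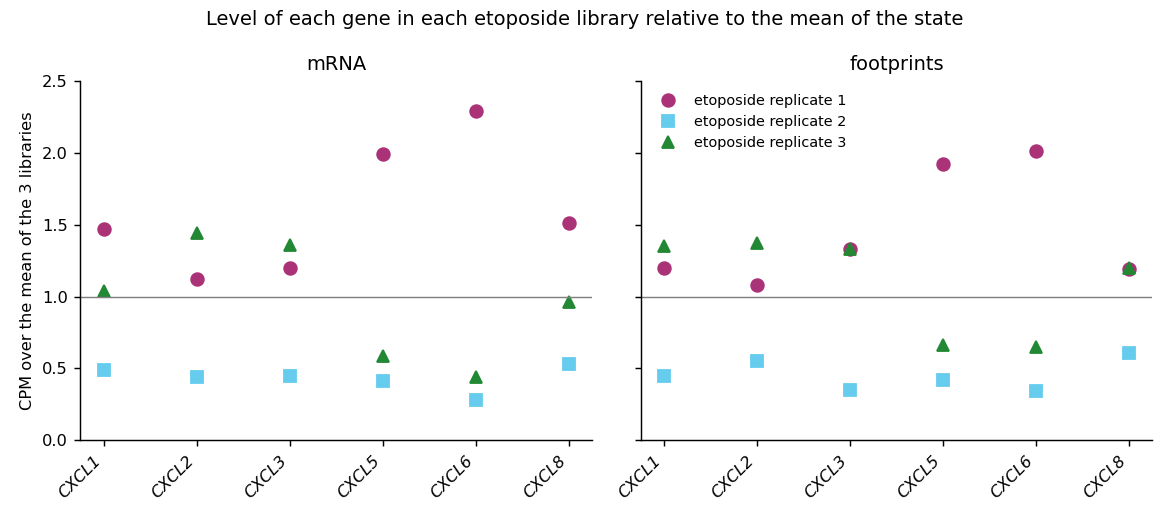
Level of each gene in each of the 3 etoposide libraries over its mean of the state, for mRNA (left) and footprints (right), on a linear axis. CXCL5 and CXCL6 reach 1.99 and 2.29 in replicate 1 of the mRNA panel, and replicate 2 is lowest for all 6 genes in both panels.

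After irradiation none of the 6 mRNAs was called against cycling cells (0 of 6, where edgeR called 34.9% of genes in either direction), although the labels call both treated states senescent. CXCL1 had the only unadjusted p under 0.05, at 1.50 ± 0.60 on the log2 scale (adjusted p = 0.0663 by edgeR). CXCL6 was at 2.11 ± 1.26, CXCL5 at 1.42 ± 1.10, CXCL2 at 0.46 ± 0.69, CXCL3 at 0.23 ± 0.63 and CXCL8 at -0.63 ± 0.66. The errors of CXCL5 and CXCL6 leave room for changes of several fold. In footprints 0 of 5 were called, with 0 at an unadjusted p under 0.05 (edgeR, 40.5% of genes called), from -1.60 ± 0.95 for CXCL8 to 1.93 ± 1.24 for CXCL6. DESeq2 called 0 in both, though it gave CXCL8 no adjusted p in any footprint comparison. The mRNA count moved to 1 under each of these alternatives: without cycling RNA-seq replicate 2, CXCL1 was called at 2.79 (edgeR adjusted p = 0.019), and in a fit of the irradiated and cycling libraries alone CXCL6 was called at 2.08 (edgeR adjusted p = 0.00102).

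Quiescent cells likewise gave 0 of 6 mRNAs called against cycling cells (15.6% of all genes) and 0 of 5 in footprints (22.4%), with 0 at an unadjusted p under 0.05 by edgeR and 0 called by DESeq2. The mRNA values ran from -0.26 ± 0.65 for CXCL3 to 2.32 ± 1.25 for CXCL6. Irradiated against quiescent cells gave 0 of 6 (18.7%) and 0 of 5 (14.6%), again with 0 at an unadjusted p under 0.05 and 0 by DESeq2, from -1.03 ± 0.59 (CXCL8) to 0.49 ± 0.56 (CXCL3) in mRNA. Spread within the untreated groups was wide. Cycling replicate 2 held 29.7 CPM over the 6 mRNAs against 5.59 CPM in replicate 1, and its footprints 32.0 CPM against 3.60 and 4.55 CPM in the others. In that RNA-seq library 33.4% of reads mapped to several places and 10.7% of gene counts lay on the other strand, against 13.2% and 5.88% in replicate 1. Whether this bears on the levels was not tested. Quiescent replicate 3 was likewise the highest of its state, at 47.3 CPM of mRNA and 23.2 CPM of footprints.

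Under thapsigargin CXCL8 was the only one of the 6 genes called. CXCL8 mRNA was at 94.6 ± 35.3 CPM (SD, n = 2) against 9.89 ± 9.50 CPM in cycling cells (n = 2) and rose by 3.29 ± 0.73 (log2, ± SE; edgeR adjusted p = 0.00566), where 11.7% of genes were called higher. CXCL8 footprints, at 150.9 ± 19.8 CPM (n = 2) against 9.41 ± 11.7 CPM (n = 3), rose by 3.92 ± 0.72 (edgeR adjusted p = 7.71e-04), where 21.1% of genes were called higher. CXCL3 mRNA had 1.51 ± 0.62 (edgeR adjusted p = 0.0959), CXCL1 1.28 ± 0.62, CXCL5 1.09 ± 1.15, CXCL2 0.61 ± 0.71 and CXCL6 0.53 ± 1.45. The other 5 values were thus smaller than that of CXCL8 and not called, and the difference between genes was not tested. Without cycling RNA-seq replicate 1 the CXCL8 mRNA change was 2.51 and did not pass the threshold (edgeR adjusted p = 0.0503), whereas without replicate 2 it was 4.89, and CXCL3 (3.30, edgeR adjusted p = 0.014) and CXCL1 (2.57, edgeR adjusted p = 0.0497) were called as well. Without cycling Ribo-seq replicate 2, 2 of 5 footprint sets were called and CXCL8 was at 5.82.

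Footprints of the other genes under thapsigargin rested on few counts, with 3 for CXCL1, 0 for CXCL2, 15 for CXCL3, 0 for CXCL5 and 1 for CXCL6 over both libraries. At this depth a count of 0 allows up to 0.804 CPM, while cycling cells held 0.84 CPM of CXCL5 footprints over the group, so a fall of CXCL5 footprints was not detectable at this depth. CXCL8 mRNA and footprints under thapsigargin stayed below every etoposide library, a difference that was not tested. The thapsigargin RNA-seq libraries had 1.35% and 1.40% unmapped reads against 27.8% to 40.6% in all others, and in their Ribo-seq libraries 65.2% and 66.9% of reads mapped to several places against 19.8% to 31.9%. With the different medium, thapsigargin and batch cannot be told apart.

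Translational efficiency (TE), the ratio of footprints to mRNA, was tested by an interaction term, state by library type, in a fit of all 27 libraries, and 0 of 5 genes were called in any of 4 comparisons, with 0 at an unadjusted p under 0.05 by edgeR and 0 called by DESeq2. Etoposide against cycling cells gave 1.11 ± 1.09 for CXCL3, 0.18 ± 0.94 for CXCL1, 0.11 ± 0.96 for CXCL8, -0.46 ± 1.84 for CXCL6 and -0.57 ± 1.51 for CXCL5 (log2, ± SE), where edgeR called 0.0854% of all genes. These errors allow changes of several fold either way, so footprints and mRNA rose by amounts that could not be told apart. Etoposide against irradiated cells gave -0.29 ± 1.45 (CXCL6) to 2.21 ± 1.53 (CXCL3), with 0.00% of genes called. Quiescent against cycling cells gave -0.93 ± 1.01 (CXCL1) to 0.25 ± 1.27 (CXCL3), also with 0.00%. Under thapsigargin, where 20.9% of genes were called, CXCL3 was at 1.14 ± 1.45 and CXCL8 at 0.64 ± 1.07. The fitted TE values of CXCL1, CXCL5 and CXCL6 were below 0 there, but they rested on 3, 0 and 1 footprints and give no usable size. The fits above did not pair RNA-seq and Ribo-seq libraries by number. With the replicate number as a block, 2 genes, CXCL1 and CXCL5, were called lower in TE under thapsigargin, on those same few footprints.

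Within the etoposide libraries, footprint CPM over mRNA CPM of same-numbered libraries was 0.694, 0.789 and 1.1 for CXCL1, 1.08, 0.76 and 0.957 for CXCL3, 0.758, 0.794 and 0.878 for CXCL5, 0.566, 0.777 and 0.956 for CXCL6, and 0.871, 1.28 and 1.38 for CXCL8. CXCL2 stood apart, at 0.0965, 0.125 and 0.095, from 20 footprints against 1136 mRNA counts. The CXCL2 footprints were thus low in all 3 etoposide libraries relative to its mRNA, and in quiescent and irradiated cells as well, at 0.044 and 0.0558. Footprints that map equally to CXCL1 or CXCL3 would be in no gene's count, and their part in this was not tested.

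Ordered by mean mRNA level, etoposide came first for all 6 genes. For CXCL1 irradiated, thapsigargin, quiescent and cycling cells followed, each overlapping its neighbour in range. For CXCL2 the order was thapsigargin, irradiated, quiescent and cycling, again with overlap at every step. For CXCL3 thapsigargin stood apart as the second, and irradiated, cycling and quiescent cells overlapped below it. For CXCL5 irradiated, quiescent, thapsigargin and cycling cells overlapped in turn. For CXCL6 quiescent and irradiated cells overlapped, and so did thapsigargin and cycling cells below them, with a gap between irradiated (1.60 CPM or more) and thapsigargin libraries (up to 0.707 CPM). For CXCL8 thapsigargin was the second without overlap, then quiescent, cycling and irradiated cells overlapped.

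The cluster holds 3 further protein-coding genes, all of them best known from platelets. PPBP, the platelet precursor of another CXCR2 ligand, had 0 mRNA counts in all libraries. PF4V1 (chr4:73853296-73854483), a variant of platelet factor 4 that lies between CXCL6 and CXCL1, had 15.1, 6.64 and 3.29 CPM of mRNA in the etoposide libraries, from 780 counts in all, and 2 counts in cycling, 4 in quiescent, 11 in irradiated and 0 in thapsigargin libraries. Its mRNA was 183 times the cycling level (95% exact counting interval 50.4 to 1512) and 55.1 times the irradiated level (30.6 to 111). It passed the filter on low counts through the etoposide libraries, so no test is given. PF4V1 footprints numbered 158 after etoposide and 0 in cycling cells, at least 97.6-fold higher. PF4 itself had 0 mRNA counts in every library but 33 footprint counts after etoposide against 1 in cycling cells. PF4 and PF4V1 are near-identical paralogs and the RNA-seq and Ribo-seq counts follow different gene lists, so the values of both are uncertain. Of 6 platelet relatives and receptors, PF4V1 alone passed the filter on low counts, and the receptor genes CXCR1, CXCR2 and ACKR1 did not.

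**Figure D4:**
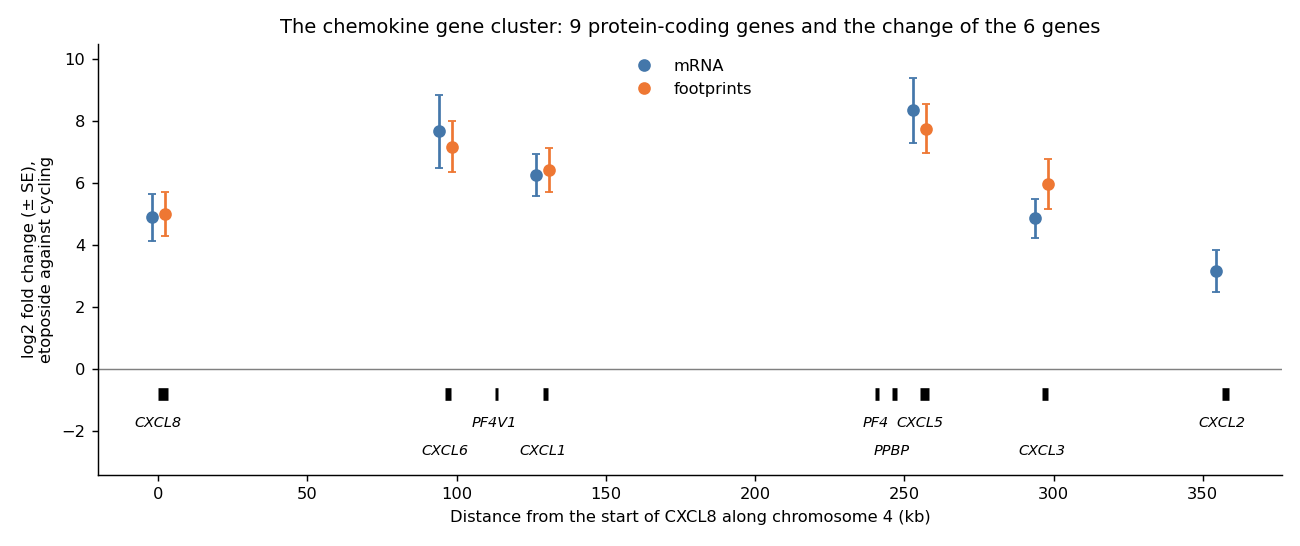
Position of the 9 protein-coding genes (black bars) along the cluster, in kb from the start of CXCL8, and above them the log2 fold change (± SE, edgeR) of mRNA and footprints for the 6 genes, etoposide against cycling cells. The mRNA values are 3.17 for CXCL2 at one end and 4.91 for CXCL8 at the other, with 8.36 for CXCL5 between them. No value is drawn for PF4V1, PF4 and PPBP.

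Other gene lists were compared with the same tests, and their counts of genes called after etoposide against cycling cells stand beside 16.8% of all genes called higher and 17.8% called lower in mRNA, and 16.8% and 17.1% in footprints. For lists of this size a share near these values is no result about the list. Of 8 other CXC chemokine genes 3 were tested, with 1 called higher and 1 lower after etoposide than in cycling cells in mRNA and in footprints. CXCL10, an interferon-induced attractant of T cells, rose by 2.81 ± 0.70 in mRNA (edgeR adjusted p = 0.00746), from 0.613 ± 0.454 (n = 2) to 4.13 ± 2.90 CPM (n = 3). Its footprints went from 5 to 68 counts, and the filter on low counts may have passed them through the etoposide libraries alone. CXCL12, a constitutive stromal chemokine that binds CXCR4, fell by 2.80 ± 0.22 (edgeR adjusted p = 5.73e-07), from 59.2 ± 10.4 to 8.53 ± 1.97 CPM, and was also at 9.83 ± 0.351 CPM in irradiated cells. Of 22 CC and CX3C chemokine genes 8 were tested, 4 called higher and 0 lower, with a median of 2.24 beside 0.00 for all genes. CCL13, one of the 4, was at most 0.275 CPM in the other states. The filter on low counts may have passed CCL13 through the etoposide libraries, so its part in this count and median adds little. CCL2, a monocyte attractant, rose by 2.50 ± 0.20 (edgeR adjusted p = 6.52e-07), from 32.7 ± 8.84 to 185.0 ± 19.0 CPM, and it was also called higher than in cycling cells after irradiation (1.13 ± 0.19, edgeR adjusted p = 4.73e-04) and in quiescence (0.61 ± 0.19, edgeR adjusted p = 0.0415). CCL7 rose by 4.28 ± 0.66 (edgeR adjusted p = 2.45e-04) and CCL26 by 1.97 ± 0.52 (edgeR adjusted p = 0.0101), the latter from 10 to 86 counts. CCL13 had 52 counts against 1, a ratio of 24.4 (95% exact counting interval 4.18 to 981). In footprints 2 of 22 CC and CX3C genes were tested, and both, CCL2 (2.37 ± 0.26) and CCL7 (4.10 ± 0.73), were called higher by edgeR. CCL7 footprints were at most 1.28 CPM in cycling, quiescent and irradiated libraries, and 0 and 5.48 CPM under thapsigargin. The filter on low counts may thus have passed CCL7 footprints through the etoposide libraries.

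Of 14 tested genes for upstream cytokines, their receptors and adaptors, 4 were called higher and 1 lower in mRNA after etoposide than in cycling cells, with a median of 0.09. Of all genes 16.8% and 17.8% were. In footprints the counts were 4 and 2, beside 16.8% and 17.1% of all genes. IL6, a cytokine of the same secretory programme, rose by 2.43 ± 0.31 (edgeR adjusted p = 4.58e-05). IL1B, the secreted form of interleukin 1, rose by 1.72 ± 0.37 (edgeR adjusted p = 0.00295), at 7.70 to 17.7 CPM after etoposide against 2.30 and 5.50 CPM in cycling cells, and was higher by 2.95 ± 0.34 than after irradiation (edgeR adjusted p = 1.32e-04). LIF rose by 0.83 ± 0.13 (edgeR adjusted p = 3.77e-04), and the receptor gene TNFRSF1B fell by 0.81 ± 0.23 (edgeR adjusted p = 0.0155). Under thapsigargin 4 of the 14 were called higher and 5 lower, beside 11.7% and 12.8% of all genes. IL6 rose there by 0.99 ± 0.31 (edgeR adjusted p = 0.0344) and LIF by 1.04 ± 0.15 (edgeR adjusted p = 2.31e-04), while IL1B fell by 4.15 ± 0.51 (edgeR adjusted p = 8.83e-05).

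Of 18 transcription factors and regulators that act on these promoters, 5 were called higher and 0 lower after etoposide in mRNA, with a median of 0.15. Of all genes 16.8% and 17.8% were. NFKBIZ, the inducible co-factor IκBζ, rose by 2.71 ± 0.24 (edgeR adjusted p = 1.48e-06), from 13.7 ± 2.32 (n = 2) to 89.7 ± 19.7 CPM (n = 3), and was higher by 1.24 ± 0.19 than after irradiation (edgeR adjusted p = 6.05e-04). ATF3, a stress-induced partner of AP-1 proteins, rose by 1.95 ± 0.15 (edgeR adjusted p = 4.00e-07), TNFAIP3, the NF-κB feedback inhibitor A20, by 0.86 ± 0.28 (edgeR adjusted p = 0.0321) and CEBPB by 0.67 ± 0.13 (edgeR adjusted p = 0.00113). After irradiation edgeR called 3 of the 18 higher than in cycling cells and 0 lower in mRNA, beside 34.9% of all genes in either direction. These were NFKBIZ (1.47 ± 0.23), ATF3 (1.41 ± 0.15) and CEBPB (0.69 ± 0.13). In footprints it called 4 higher and 1 lower, beside 40.5%. Quiescent against cycling cells gave 6 higher and 0 lower in mRNA, beside 15.6% in either direction. In footprints that comparison gave 10 higher and 0 lower, beside 22.4%. In footprints after etoposide 7 were called higher and 1 lower, beside 16.8% and 17.1% of all genes, with NFKBIZ at 3.50 ± 0.21 (edgeR adjusted p = 2.36e-08). Under thapsigargin 12 of the 18 were called higher and 2 lower in mRNA, beside 11.7% and 12.8% of all genes, with a median of 0.88 beside -0.03 for all genes, ATF3 at 3.16 ± 0.16 (edgeR adjusted p = 9.65e-08) and CEBPB at 1.38 ± 0.14 (edgeR adjusted p = 1.72e-05). All of these comparisons with cycling cells share the cycling libraries, and the differences between them were not tested.

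Of 10 genes for RNA-binding proteins that act on mRNA decay or translation, 1 was called higher and 3 lower after etoposide in mRNA. Of all genes 16.8% and 17.8% were. ZC3H12A, the RNase regnase-1 that degrades cytokine mRNAs, rose by 1.41 ± 0.25 (edgeR adjusted p = 7.65e-04). HNRNPD, also called AUF1, fell by 1.21 ± 0.30 (edgeR adjusted p = 0.00688), TIA1, a translational silencer, by 0.83 ± 0.16 (edgeR adjusted p = 0.00136) and ELAVL1, the stabilizing protein HuR, by 0.44 ± 0.14 (edgeR adjusted p = 0.0260). In footprints 2 were called higher and 4 lower, beside 16.8% and 17.1% of all genes, with ZC3H12A at 1.61 ± 0.29 (edgeR adjusted p = 7.71e-04).

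**Figure D5:**
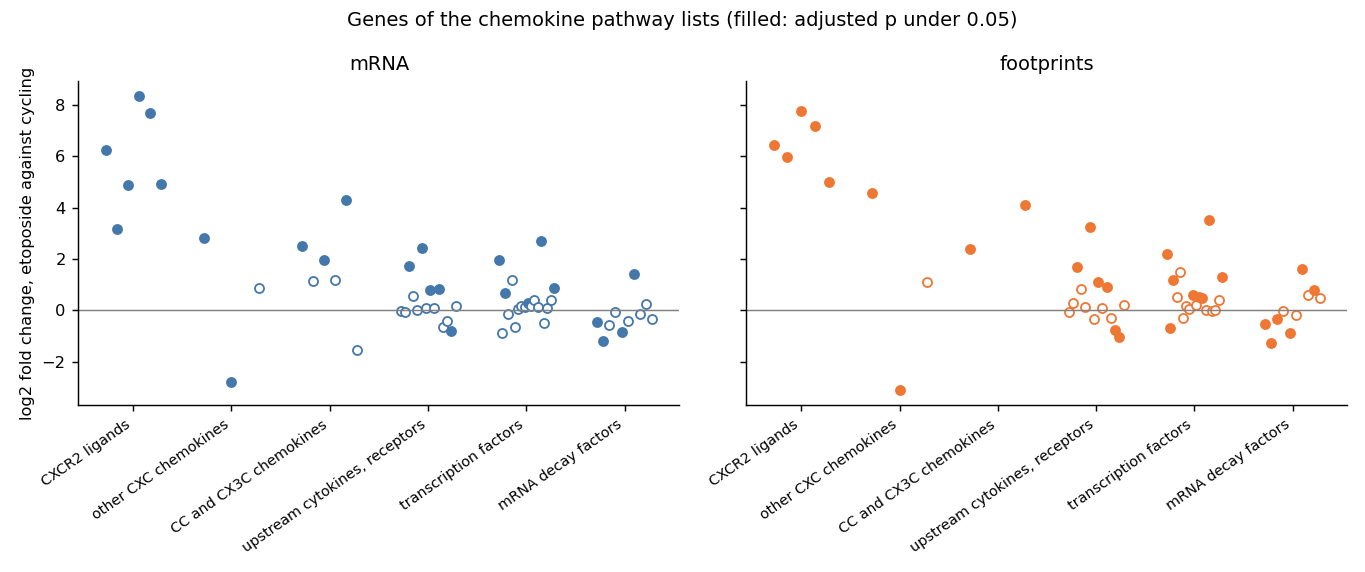
Log2 fold changes (edgeR, etoposide against cycling cells) of the tested genes of 6 lists in mRNA (left) and footprints (right), 1 point a gene, filled where the adjusted p was under 0.05, without genes that had 3 counts or fewer in either state. The CXCR2 ligands lie between 3.17 and 8.36 in mRNA, and of the other lists CCL7 lies within that range, at 4.28. CCL13, with 1 count in cycling RNA-seq, and the list that holds PF4V1 are not drawn.

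Genes whose mRNA followed the 6 chemokines most closely were found by Pearson r over the 13 RNA-seq libraries between log2 CPM and the mean of the scaled members, among 11710 genes tested in both library types. They were SLC16A6, a monocarboxylate transporter family gene (r = 0.957, and 0.955 over the 14 Ribo-seq libraries), GABRA2, a GABA receptor subunit (0.952 and 0.865), ACSL4, a fatty acid activating enzyme (0.952 and 0.953), TCIM (0.948 and 0.857) and MMP3, the matrix protease stromelysin 1 (0.948 and 0.884). The points share libraries and depth, and etoposide libraries are set apart from the rest in all of them, so the values describe these libraries. Since the genes were picked for a pattern that the etoposide libraries set, their differences from cycling to etoposide-treated cells are given with no test: 6.04 for MMP3, 4.28 for SLC16A6, 3.40 for TCIM, 3.15 for GABRA2 and 1.75 for ACSL4 (log2, mRNA). From cycling to irradiated cells the corresponding differences were -0.97, 1.41, 1.33, 1.00 and 0.31.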

How the data were processed

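Raw counts of reads per gene were deposited by the authors for 27 libraries. Per the submitters' processing notes, reads were aligned with STAR 2.7.10b to hg38, and bcl2fastq and DESeq2 1.36.0 are also named there. The annotation and trimming are not given in the sources used here. The counts follow 2 gene lists (62703 IDs, and 60664 in 12 Ribo-seq libraries), of which 60534 shared IDs were used. Of these 60461 had a symbol and 19310 were protein coding in RefSeq (GRCh38.p14). The values taken were those of the reverse strand in RNA-seq and of the forward strand in Ribo-seq. Summary lines without a gene were dropped (1.35% to 40.6% unmapped and 9.43% to 66.9% multiply mapped reads).

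Protein-coding genes kept by filterByExpr (13293 for RNA-seq, 11766 for Ribo-seq, 11715 for TE) were tested with edgeR 4.0.16 (R 4.3.3), by its quasi-likelihood test (two-sided) after TMM scaling, with the libraries of all 5 states fitted together. Benjamini-Hochberg adjustment ran over every gene tested, and a gene was called at an adjusted p under 0.05. The filter counted libraries of all states. A gene low elsewhere could thus pass it through the etoposide libraries, and a call of such a gene adds little. The procedure was tested on simulated data. CPM are counts per 1e6 of the TMM-scaled library, and scaling sets the average change to about 0. Alternatives were DESeq2 1.42.0, RLE scaling, no filter, both strands together, the compared groups alone, a replicate block, each library left out in turn and, added after the data were seen, a fit without thapsigargin libraries.

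Genes of the other lists were named by size of the mRNA change among those called after etoposide against cycling cells, at most 4 a list, and the 5 genes of most similar pattern by Pearson r on log2(CPM + 0.5). The 6 genes and all lists were chosen with earlier results of these data known. Promoter windows came from RefSeq. Depths of 1.94 to 20.0 (in units of 1e6 counts) in Ribo-seq limit the precision for genes of few footprints, and intervals and floors cover counting error only.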

Additional observations from a re-analysis of the deposited data

How the results depend on the processing

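All 18 mRNA and 15 footprint differences of etoposide-treated cells from cycling, quiescent and irradiated cells kept their direction and call under every alternative that gave an adjusted p, at most 0.0413 and 0.0486, including the fit without the thapsigargin libraries, chosen after the data were seen. DESeq2 gave no adjusted p for CXCL8 footprints in any comparison, and of the other 4 genes it called 4 after etoposide and 0 under thapsigargin. The footprint calls after etoposide include CXCL3, which the filter on low counts may have passed through the etoposide libraries. The counts of called genes that moved were these. Irradiated against cycling mRNA gave 1 in place of 0 in a fit of those groups alone, and 0 to 1 when a library was left out. Thapsigargin against cycling gave 0 to 3 in mRNA and 1 to 2 in footprints when a library was left out. With the replicate number as a block, TE under thapsigargin gave 2 in place of 0, both lower. The block changed no other count of called genes. Between states no pairing by number was established. Same-numbered libraries of different states had deviations that correlated from -0.19 to 0.47 in RNA-seq, with 8 of 23 pairs over 0.1, and from -0.19 to 0.27 in Ribo-seq, with 5 of 26. Between RNA-seq and Ribo-seq libraries of a state, same-numbered pairs correlated from -0.02 to 0.57, with 6 of 13 over 0.1. Differently numbered pairs ran from -0.52 to 0.37, with 2 of 24 over 0.1. The main TE fit did not use such a pairing, and the fit with the block did.

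Signs that turned, all without a call and all with a library left out, belonged to uncalled differences. In mRNA the ranges were -0.58 to 2.44 for CXCL2, -1.15 to 1.53 for CXCL3 and -0.38 to 2.00 for CXCL8 in quiescent against cycling cells. They were -0.46 to 2.55 for CXCL2, -0.66 to 2.02 for CXCL3 and -1.41 to 0.98 for CXCL8 after irradiation, and -0.32 to 2.7 for CXCL2 and -0.29 to 1.78 for CXCL6 under thapsigargin. In TE they were -1.11 to 1.82 for CXCL1, -0.68 to 3.64 for CXCL3, -3.17 to 1.36 for CXCL5, -1.69 to 1.04 for CXCL6 and -1.49 to 2.01 for CXCL8 after etoposide, and -0.97 to 2.54 for CXCL8 under thapsigargin. The cause was not tested. Depth limits the footprint values under thapsigargin most.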
